A study of Mus musculus with 14 samples.

Results

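RNA of the mitochondrial genome was measured in hearts that lacked Sqstm1 in cardiac muscle and in wild-type hearts, at 15 and 2 months of age. Every gene of the count table that lies on the mitochondrial chromosome in the GENCODE M21 annotation was taken, which gave 37 of 55487 gene identifiers. They are 13 mRNAs, 22 tRNAs and 2 rRNAs. No measured value enters this rule, although it was set with earlier results of these data known. All hearts came from untreated male C57BL/6 mice. The knockout (KO) is Myh6-Cre-Sqstm1fl/fl, in which Cre recombinase under the Myh6 promoter, active in cardiac muscle cells, removes Sqstm1, the gene for the autophagy receptor p62. Other cells of a KO heart keep the gene. The controls are labelled wild type (WT), and the labels do not say whether they carry loxP sites or Cre, or whether a library pools animals. There were 4 KO and 4 WT hearts at 15 months, and 3 KO and 3 WT hearts at 2 months. The study is about p62, the transcription factor Nrf2 and oxidative stress, per the series title, and here the genotypes were compared at each age and the ages within each genotype.

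The circular mitochondrial DNA is transcribed from both of its strands into long precursor RNAs. tRNAs lie between most of the rRNAs and mRNAs, and nucleases that cut at the tRNA ends release the mature RNAs. The mRNAs encode core subunits of respiratory complexes I, III and IV and of ATP synthase, the rRNAs build the mitochondrial ribosome and the tRNAs serve its translation. Cardiac muscle is among the tissues richest in mitochondria, and p62 is known as a receptor that takes part in their clearance by autophagy.

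Total counts per library ranged from 20218992 to 30404416. Sqstm1 averaged 21.3 ± 10.5 CPM (counts relative to the scaled library total) in KO hearts and 201 ± 28.3 CPM in WT hearts at 15 months (SD, n = 4 each), and 16.4 ± 2.49 CPM in KO and 162 ± 20 CPM in WT hearts at 2 months (SD, n = 3 each). Summed CPM of 8 cardiac muscle markers lay between 35945 and 45878 in every library. Summed CPM of 4 atrial markers lay at 5.56 to 140 in KO and 2.57 to 217 in WT hearts at 15 months, and at 118 to 148 in KO and 90.9 to 1633 in WT hearts at 2 months. Among them, Myl7 lay at 0.0421 to 58.1 CPM in KO and 0.357 to 39.7 CPM in WT hearts at 15 months. At 2 months Myl7 lay at 0.177 to 0.303 CPM in KO and 0.0597 to 638 CPM in WT hearts. The libraries may thus hold unequal and often small amounts of atrium, and the part of this in the results was not tested. Summed CPM of 5 endothelial markers lay at 270 to 1067 in KO and 277 to 458 in WT hearts at 15 months, and at 283 to 338 in KO and 253 to 311 in WT hearts at 2 months. Summed CPM of 6 fibroblast markers lay at 526 to 962 in KO and 309 to 686 in WT hearts at 15 months, and at 490 to 641 in KO and 476 to 1221 in WT hearts at 2 months. Over all libraries the summed CPM of smooth muscle and mural markers lay between 705 and 1112, of macrophage markers between 50.8 and 116, of red cell markers between 26.2 and 142 and of fat cell markers between 0.209 and 27.6. The part of these cells in the results was not tested. Each library's log2 CPM, minus the gene's mean over all libraries, was regressed on log2 gene length over nuclear genes. The resulting length slope is thus relative to the other libraries. It was below 0 in all 6 libraries at 2 months and above 0 in 6 of 8 libraries at 15 months. The exceptions at 15 months were KO replicate 1 (-0.0947) and WT replicate 2 (-0.0778). KO replicate 3 at 15 months and WT replicate 3 at 2 months held the least mitochondrial rRNA and also the least of the 18S rRNA gene CT010467.1, with 1583 and 5933 CPM against 11416 to 63488 CPM in the other 12 libraries. The kit removes rRNA, per the labels' protocols, and the part of that step in any value below was not tested. No label states that each heart was processed on its own, so the p-values reflect only how far these libraries spread, which may in part be technical.

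Mitochondrially encoded genes held 46.0%, 32.8%, 27.5% and 38.0% of all counts in the 4 KO hearts at 15 months (replicates 1 to 4), against 32%, 29.4%, 28.4% and 32.6% in the 4 WT hearts. The young KO hearts held 39.1%, 31.4% and 35.3%, against 31.8%, 40.7% and 29.0% in WT hearts at 2 months. KO replicate 1 at 15 months had the highest share and KO replicate 3 at 15 months the lowest, so 1 group held both ends of the range, and KO and WT hearts overlapped at both ages. The means were 36.0% ± 7.89 in KO and 30.6% ± 2.01 in WT hearts at 15 months (SD, n = 4 each), and 35.3% ± 3.84 in KO and 33.9% ± 6.12 in WT hearts at 2 months (SD, n = 3 each), differences smaller than the spread within KO hearts at 15 months and within WT hearts at 2 months. Counting error was small, since the widest 95% Wilson interval of a library's share spanned 0.043 percentage points. In whole tissue, fewer cells of a type and less RNA per cell cannot be told apart.

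Most of these counts lay on the mRNAs, which took 25.6% to 41.8% of a library. The rRNAs took 0.844% to 7.16% and the tRNAs 0.0825% to 0.223%. The tRNA share was 0.144% to 0.175% in KO hearts and 0.0957% to 0.223% in WT hearts at 15 months, and 0.0825% to 0.109% in KO and 0.0826% to 0.111% in WT hearts at 2 months. Every KO heart at 15 months thus lay above every KO heart at 2 months in tRNA share, whereas the WT ranges at the 2 ages overlapped.

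**Figure D1:**
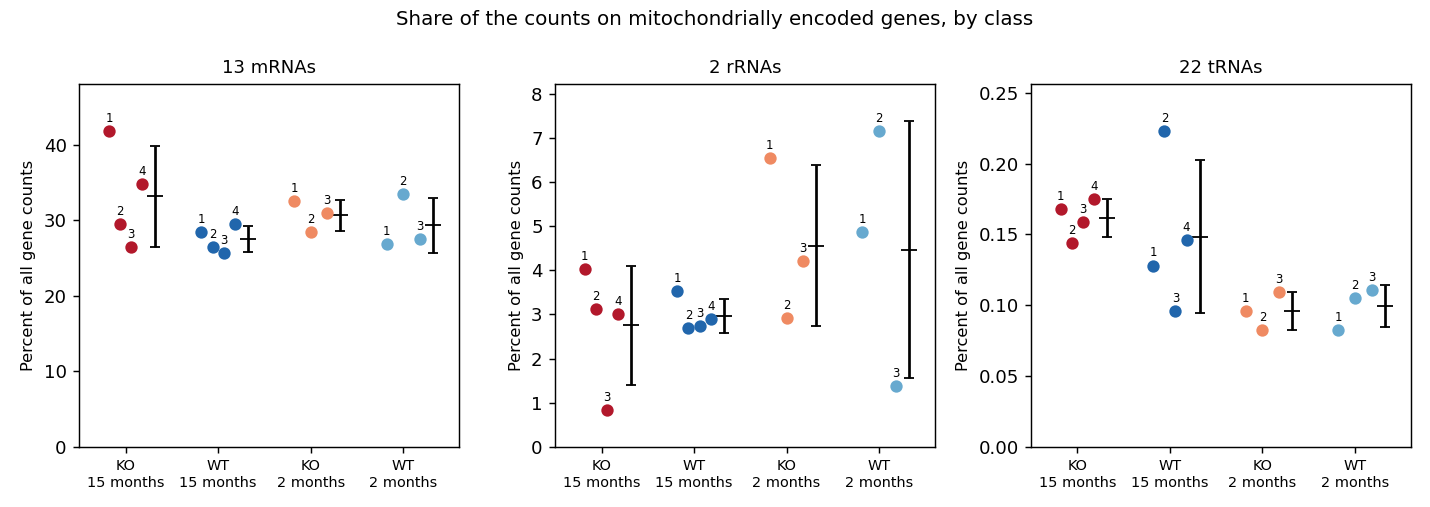
Percent of all gene counts that fell on the 13 mRNAs, the 2 rRNAs and the 22 tRNAs (y axes, each from 0) in the 4 groups (x axis). Each point is a library with its replicate number, and the bars give mean ± SD. KO replicate 3 at 15 months (0.844%) and WT replicate 3 at 2 months (1.38%) are lowest for rRNA.

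The 12S rRNA gene mt-Rnr1 (chrM:70-1024, plus strand) had 27195, 16814, 5402 and 18627 CPM in KO hearts at 15 months, against 20419, 16464, 13773 and 16799 CPM in WT hearts. KO hearts at 2 months had 32287, 16066 and 23969 CPM, against 22592, 39566 and 6588 CPM in WT hearts. The 16S rRNA gene mt-Rnr2 (chrM:1094-2675, plus strand) had 19642, 13268, 2324 and 13996 CPM in KO hearts at 15 months, against 16170, 8046, 10635 and 11151 CPM in WT hearts. At 2 months mt-Rnr2 had 41215, 12424 and 20675 CPM in KO hearts, against 20534, 46797 and 6050 CPM in WT hearts. For both rRNAs the lowest KO value at 15 months and the lowest WT value at 2 months came from the replicates numbered 3, and the genotypes overlapped at both ages. Neither rRNA passed the test in any comparison. The highest library exceeded the lowest 7.32-fold for mt-Rnr1 and 20.1-fold for mt-Rnr2. Among the mRNAs this ratio ran from 2.24-fold for mt-Co1 and 2.48-fold for mt-Cytb up to 24.5-fold for mt-Atp8. It was 6.92-fold for mt-Co3 and 16.8-fold for mt-Nd4l, so the rRNAs lay within the range of the mRNAs.

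The levels of the 13 mRNAs were compared per kb of gene, as CPM per kb averaged over all 14 libraries. The complex IV subunit mt-Co1 stood first with 92389 ± 24674 CPM per kb (SD, n = 14), and its lowest library (61888) lay above the highest library of the next gene. The complex III subunit mt-Cytb followed with 36738 ± 9453 CPM per kb and stood above mt-Nd1 in all 14 libraries, although their ranges overlapped. The complex I subunits mt-Nd1, mt-Nd2, mt-Nd5 and mt-Nd4 averaged 32371, 23311, 22809 and 14727 CPM per kb. mt-Nd2 and mt-Nd5 could not be ordered, since mt-Nd2 was the higher in only 8 of 14 libraries. The complex I subunit mt-Nd6, the only mRNA on the minus strand, averaged 6779 ± 2279 CPM per kb and lay above all genes that follow in every library.

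Below mt-Nd6 came a drop to 6 genes whose ranges overlapped. They were the complex IV subunits mt-Co3 and mt-Co2 with 818 and 390 CPM per kb, the ATP synthase subunits mt-Atp6 and mt-Atp8 with 581 and 309, and the complex I subunits mt-Nd4l and mt-Nd3 with 430 and 381. These 6 genes lie next to each other on the genome, in the order mt-Co2, mt-Atp8, mt-Atp6, mt-Co3, mt-Nd3 and mt-Nd4l, with tRNA genes between some of them. The well counted mt-Co1 and mt-Nd4 flank the block.

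The same block has near-identical copies in nuclear DNA. Annotated nuclear transcripts were searched for stretches of 100 bases that also occur in a mitochondrial gene, and 10 pseudogenes held such stretches for 8 of the mRNAs. Of these copies, 7 lie in a row on the minus strand of chr1:24611535-24616197 and 3 on chromosome 2. Over 90% of the 100-base windows of mt-Co2, mt-Atp6, mt-Co3, mt-Nd3 and mt-Nd4l occurred in a copy. The share was 60.8% for mt-Nd4, 30.8% for mt-Co1 and 3.19% for mt-Nd2, and 0% for mt-Nd1, mt-Atp8, mt-Nd5, mt-Nd6 and mt-Cytb. The chromosome 1 copies of mt-Nd4, mt-Nd4l, mt-Co3, mt-Atp6 and mt-Co2 showed 0 mismatches over the 876, 294, 783, 678 and 681 bases compared.

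The pair of mt-Nd3 and its copy Gm28438 is printed because a single base tells them apart over 345 bases. Substitutions are counted from base 1 of the mitochondrial gene, and this one is T3C. The first 60 bases of mt-Nd3 (chrM:9459-9518, plus strand) and of Gm28438 (chr1:24613060-24613119, minus strand) are given 5′ to 3′, from the GENCODE M21 transcripts on GRCm38, with the differing base in capitals.
mt-Nd3: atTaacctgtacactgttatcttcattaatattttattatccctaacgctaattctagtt
Gm28438: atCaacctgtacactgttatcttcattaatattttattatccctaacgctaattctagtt

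The copy of mt-Co1, Gm29216, covers bases 1054 to 1545 of the gene and differs at 6 of 492 bases, all at its start. They are T1056A, C1057T, A1059G, A1060G, C1062A and A1066T, and capitals mark them in mt-Co1 (chrM:6381-6440, plus strand) and Gm29216 (chr1:24616138-24616197, minus strand).
mt-Co1: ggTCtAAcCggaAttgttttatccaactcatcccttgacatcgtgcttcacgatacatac
Gm29216: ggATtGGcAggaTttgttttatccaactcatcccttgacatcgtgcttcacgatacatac

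The copies were counted as genes of their own. Gm28437, the copy of mt-Co3, had 10327 to 24028 counts per library, a median of 128% of the count of mt-Co3 itself. The copies of mt-Atp6, mt-Co2, mt-Nd4l and mt-Nd3 had medians of 216%, 140%, 127% and 54.2% of their members' counts. Gm28438 stayed below mt-Nd3 in every library, at 28.4% to 88.2% of its count, and Gm29216 and Gm28439 had 0.427% and 1.42% of the counts of mt-Co1 and mt-Nd4. How reads that map to both places were counted is not given in the sources used here, so the levels of these 5 members over 90% shared are uncertain. mt-Atp8 lies in the same block and at the same level with 0% shared with annotated transcripts, and the nuclear sequence opposite it was not analysed here. Its last 43 bases are also the first 43 of mt-Atp6, and they are shown in capitals at the end of mt-Atp8 (chrM:7907-7969, plus strand), since a read there belongs to either gene.
mt-Atp8: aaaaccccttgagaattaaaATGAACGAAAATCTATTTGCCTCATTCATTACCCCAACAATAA

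**Figure D2:**
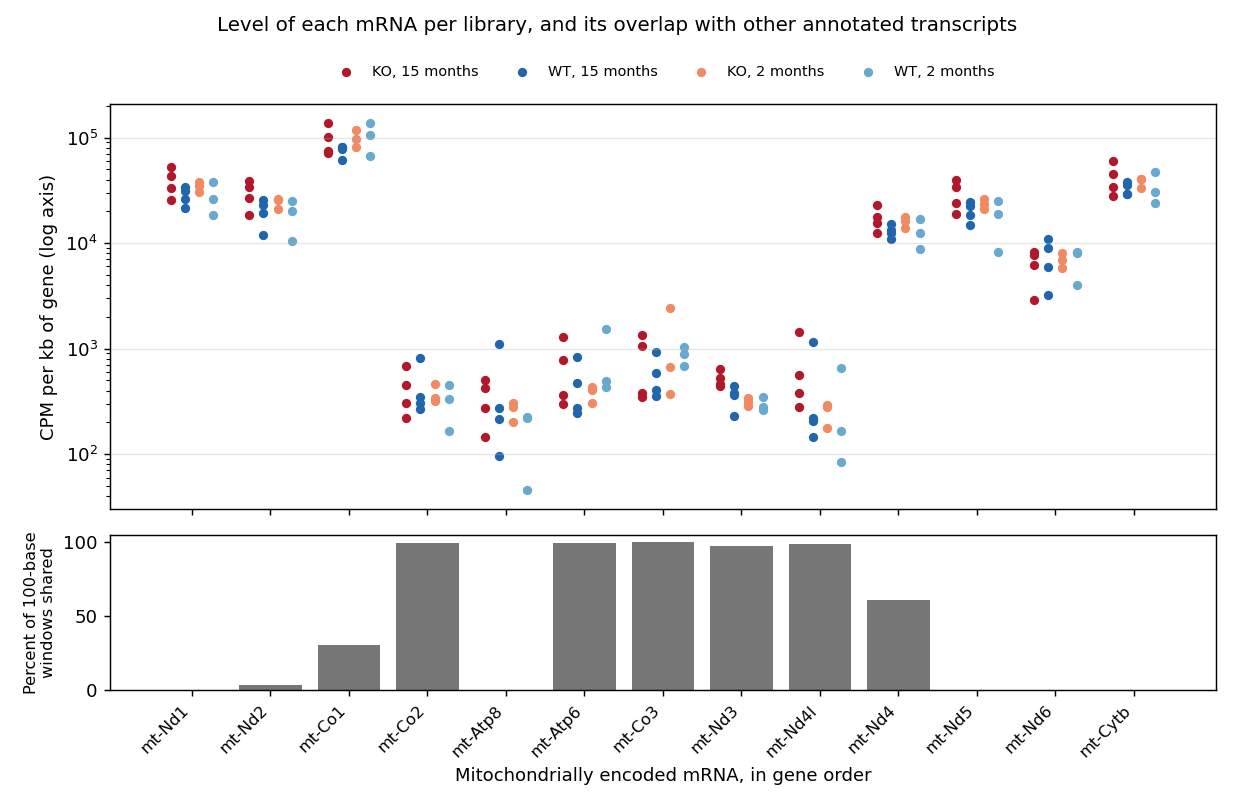
Upper panel: CPM per kb of each of the 13 mRNAs (log axis) in gene order along the mitochondrial genome, 1 point per library, coloured by group. Lower panel: percent of the gene's 100-base windows that also occur in another annotated transcript; mt-Co2 to mt-Nd4l lie far below their neighbours, and 5 of these 6 are over 90% shared.

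Between genotypes, no member passed the test at either age. At 15 months 0 of 34 tested members passed edgeR's quasi-likelihood test with an adjusted p below 0.05, where 0.00644% of the 15528 genes tested did (1 gene, Sqstm1). At 2 months 0 of 34 passed, with the same 0.00644% of all genes. DESeq2 and limma voom also gave 0 members at both ages, where they called 0.0451% and 0.00644% of all genes at each age. At an unadjusted p below 0.05 there were 4 members at 15 months, where 3.97% of all genes passed, and 0 members at 2 months, where 3.18% did. The difference between the KO effects at the ages was passed by 0 members and by 0% of all genes (edgeR, with 1 member at an unadjusted p below 0.05). For the mean KO effect over both ages the counts were 0 of 34 members and 0.00644% of all genes, with 5 members at an unadjusted p below 0.05, where 3.26% of all genes passed.

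In KO over WT hearts at 15 months 10 of 13 mRNAs had a log2 fold change above 0. Their median was 0.45, beside 0.0083 over all genes tested. At 2 months 10 of 13 were above 0, with a median of 0.23 and -0.0015 over all genes. The median at 15 months was 0.13 without KO replicate 1, the library with the highest mitochondrial share. Without KO replicate 3 or WT replicate 1 at 15 months it was 0.60 or 0.55. It was 0.28 with plain library totals. With libraries scaled to the 13 mRNAs themselves it was 0.022, but that scaling equalises their summed counts. Their changes then lie around 0 largely by construction, so this value says nothing about the size of the median. The median at 2 months was 0.13 without KO replicate 1, 0.15 without KO replicate 3, 0.10 without WT replicate 3 and 0.56 without WT replicate 2, and 0.026 with the copies' counts added.

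mt-Nd3 (chrM:9459-9806, plus strand), a complex I subunit, had 225, 162, 154 and 185 CPM in KO hearts at 15 months, against 153, 80.2, 126 and 132 CPM in WT hearts. At 2 months it had 119, 110 and 100 CPM in KO hearts, against 97.4, 121 and 91.9 CPM in WT hearts. The 4 KO hearts at 15 months lay above the 4 WT hearts, the lowest KO value next to the highest WT value, whereas the genotypes overlapped at 2 months. It was the only member whose KO values were all higher at 15 months, where 0.760% of all genes had such a pattern, while 0 members were all lower there (1.23% of all genes) and 0 all higher at 2 months (4.43%). The log2 fold change of KO over WT was 0.56 (SE 0.18, adjusted p 0.999) at 15 months and 0.083 (SE 0.21, adjusted p 0.9997) at 2 months, and neither passed edgeR's test. Over 27 alternative settings the value at 15 months lay between 0.21 and 0.69. How reads shared with the copy Gm28438 were counted is not given in the sources used here, so the narrow separation at 15 months is uncertain.

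mt-Co1 (chrM:5328-6872, plus strand) had 213872, 115694, 111412 and 156031 CPM in KO hearts at 15 months, against 120755, 125921, 95617 and 125020 CPM in WT hearts. KO hearts at 2 months had 180933, 126941 and 148967 CPM, against 102527, 212828 and 161859 CPM in WT hearts. The genotypes overlapped at both ages, and the highest WT heart at 2 months was close to the highest KO heart at 15 months. The log2 fold change of KO over WT was 0.35 (SE 0.27) at 15 months and -0.063 (SE 0.31) at 2 months.

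mt-Cytb (chrM:14145-15288, plus strand) had 68841, 39250, 31599 and 51608 CPM in KO hearts at 15 months, against 43162, 33296, 33536 and 40309 CPM in WT hearts. The values at 2 months were 46724, 38098 and 46016 CPM in KO hearts, against 34813, 53431 and 27707 CPM in WT hearts. KO replicate 3 at 15 months lay below all 4 WT hearts of that age and KO replicates 1 and 4 above all 4, so the groups overlapped.

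mt-Nd6 (chrM:13552-14070, minus strand) is transcribed from the other strand. It had 4269, 1486, 3203 and 3979 CPM in KO hearts at 15 months, against 3058, 5653, 1673 and 4666 CPM in WT hearts. The values at 2 months were 4134, 3010 and 3585 CPM in KO hearts, against 2089, 4163 and 4285 CPM in WT hearts. The log2 fold change of KO over WT was -0.22 (SE 0.37) at 15 months and 0.026 (SE 0.43) at 2 months, and the genotypes overlapped at both ages.

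Set against the summed counts of mt-Nd1, mt-Nd2, mt-Nd5 and mt-Cytb, mt-Nd6 came to 1.04% to 2.93% in KO hearts and 1.49% to 6.04% in WT hearts at 15 months. At 2 months it came to 2.36% to 2.68% in KO and 1.82% to 6.02% in WT hearts. Both values above 6% belonged to WT libraries, replicate 2 at 15 months and replicate 3 at 2 months. The same 2 libraries had mt-Co1 at 135% and 227% of that sum against 80.8% to 131% in the other 12. Both ratios divide by the same sum, so a low sum raises both, and they are not separate observations. WT replicate 3 at 2 months had the lowest mt-Nd5 (14961 CPM) and mt-Cytb (27707 CPM) of all libraries. The last 14 bases of mt-Nd6 lie opposite the last 14 of mt-Nd5, shown in capitals at the ends of mt-Nd5 (chrM:13526-13565, plus strand) and mt-Nd6 (chrM:13552-13591, minus strand). The strand setting of the counting is not given in the sources used here.
mt-Nd5: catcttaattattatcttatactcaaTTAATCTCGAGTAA
mt-Nd6: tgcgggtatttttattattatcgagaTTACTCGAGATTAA

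The ATP synthase subunits varied from heart to heart, 6.25-fold between the lowest and highest library for mt-Atp6 and 24.5-fold for mt-Atp8. Other genes of the same low-counted block did so too, with 16.8-fold for mt-Nd4l and 6.92-fold for mt-Co3. mt-Atp6 (chrM:7927-8607, plus strand) had 530, 248, 202 and 870 CPM in KO hearts at 15 months, against 319, 166, 184 and 572 CPM in WT hearts. At 2 months it had 297, 208 and 275 CPM in KO hearts, against 336, 294 and 1039 CPM in WT hearts. WT replicate 3 at 2 months was the highest library of all. mt-Atp6 had the lowest log2 fold change of the mRNAs at 2 months, -1.10 (SE 0.59, adjusted p 0.9997 by edgeR), and 0.58 (SE 0.51) at 15 months. Without WT replicate 3 at 2 months the value at 2 months was -0.26, and with the copies' counts added -0.23. Its mean KO effect over both ages was the lowest of the mRNAs, -0.26 (SE 0.39), and the difference between its effects at the ages was the highest of the mRNAs, 1.67 (SE 0.78, adjusted p 0.9999 by edgeR). That difference was 0.83 without WT replicate 3 at 2 months and 0.87 with the copies' counts added.

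mt-Atp8 (chrM:7766-7969, plus strand) had 103, 55.2, 29.8 and 87.1 CPM in KO hearts at 15 months, against 226, 19.7, 43.8 and 56.3 CPM in WT hearts. In the young hearts it had 57.5, 41.4 and 61.7 CPM in KO hearts, against 45.4, 45.1 and 9.24 CPM in WT hearts at 2 months. Its WT values included the highest library, WT replicate 1 at 15 months, and the lowest, WT replicate 3 at 2 months. It had the lowest log2 fold change of the mRNAs at 15 months, -0.33 (SE 0.66), and the highest at 2 months, 0.69 (SE 0.77). Without WT replicate 1 at 15 months the value at 15 months was 0.78, and without WT replicate 3 at 2 months the value at 2 months was 0.26. The difference of -1.02 (SE 1.01) was the lowest of the mRNAs, and none of these values passed the test.

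mt-Nd4l (chrM:9877-10173, plus strand) had 425, 82.2, 169 and 114 CPM in KO hearts at 15 months, against 340, 42.6, 61.3 and 64.9 CPM in WT hearts. At 2 months it had 83.1, 52.2 and 86.7 CPM in KO hearts, against 196, 49.2 and 25.2 CPM in WT hearts. Replicate 1 was the highest heart in 3 of the 4 groups, and the genotypes overlapped at both ages. Its log2 fold change of KO over WT at 15 months was the highest of the mRNAs, 0.63 (SE 0.75). It was -0.065 without KO replicate 1 and 1.81 without WT replicate 1 at 15 months.

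mt-Nd5 (chrM:11742-13565, plus strand), also of complex I, had 72943, 43980, 34066 and 62304 CPM in KO hearts at 15 months, against 44209, 27345, 33551 and 40815 CPM in WT hearts. The 3 KO hearts at 2 months had 47725, 38003 and 42328 CPM, against 34186, 46047 and 14961 CPM in the WT hearts. KO replicates 1 and 4 at 15 months lay above all WT hearts, and the genotypes overlapped at both ages. mt-Nd5 had the highest mean KO effect over both ages among the mRNAs, 0.49 (SE 0.24, adjusted p 0.999 by edgeR).

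**Figure D3:**
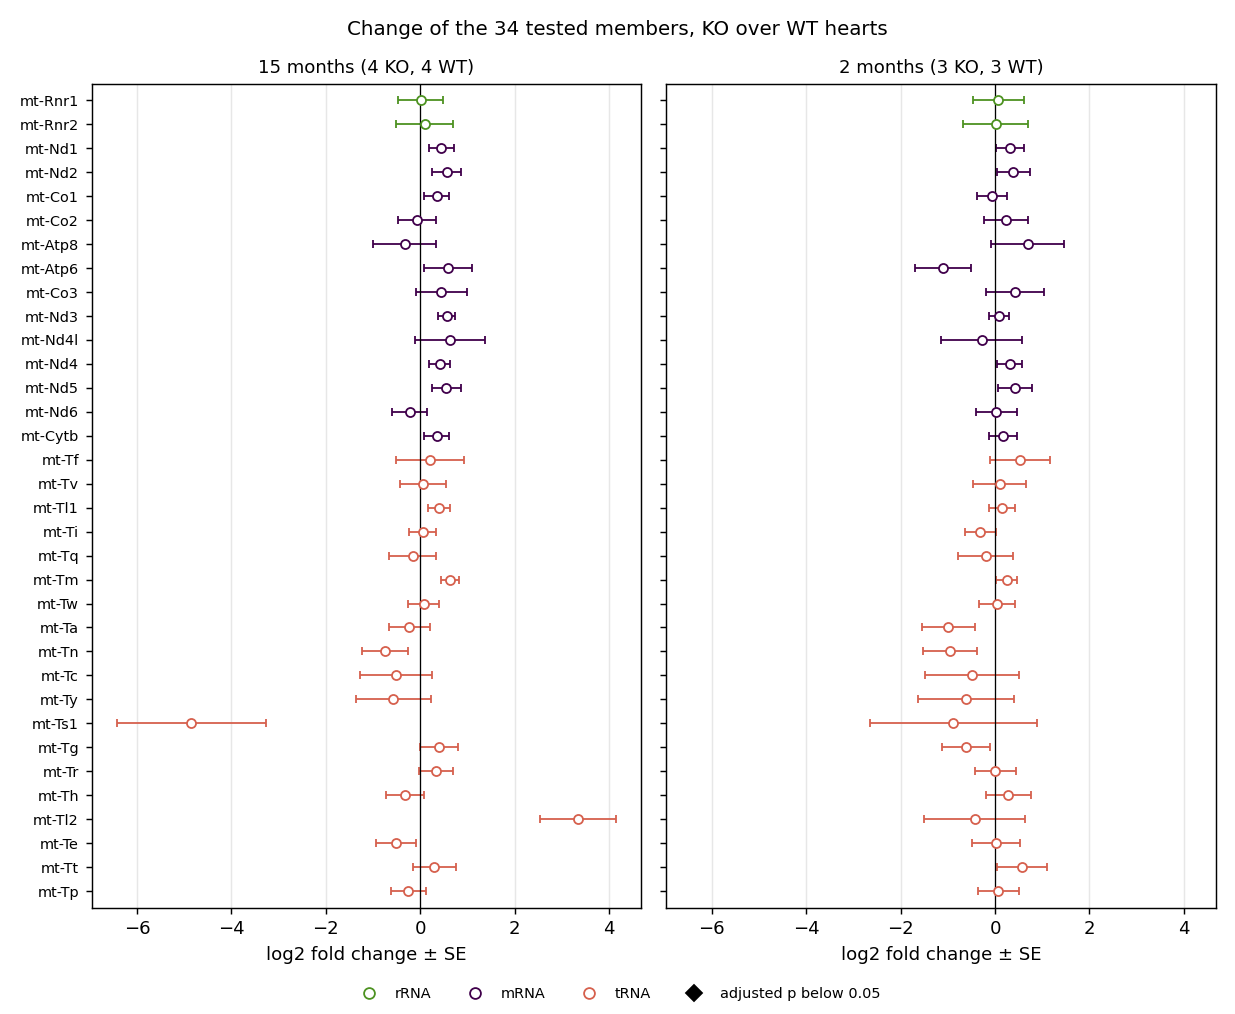
Log2 fold change ± SE of KO over WT hearts (x axis) for the 34 tested members (y axis, rRNAs, mRNAs and tRNAs each in gene order) at 15 months (left) and 2 months (right). No marker is filled, since no member had an adjusted p below 0.05; mt-Ts1 (-4.85) and mt-Tl2 (3.34) lie farthest from 0 at 15 months.

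With age, 2 of 34 members rose in KO hearts, the tRNAs mt-Tm and mt-Tl2, beside 2.25% of all genes in either direction and 1.07% that rose (edgeR's quasi-likelihood test, adjusted p below 0.05). The genes that fell were 1.18% of all and 0 members, and 9 members had an unadjusted p below 0.05, where 26.7% of all genes did. In WT hearts 0 of 34 members passed, beside 1.04% of all genes, with 4 members at an unadjusted p below 0.05, where 23.8% of all genes passed. DESeq2 called 6 members in KO hearts, where it called 10.3% of all genes, and 1 member in WT hearts, where it called 7.19% of all genes. limma voom called 1 member in KO hearts (3.12% of all genes) and 0 in WT hearts (0.979% of all genes). No mRNA or rRNA passed edgeR's test in either genotype. The comparisons within KO and within WT hearts set different libraries against each other. Both come from 1 fit over all 14 libraries with a shared estimate of the spread, so their p-values are not independent. The difference between the age effects is the interaction tested above, which 0 members passed.

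mt-Tm is the tRNA for methionine, which serves both the start and the elongation of mitochondrial proteins. It lies directly before mt-Nd2, whose first base is chrM:3914. It is shown whole with its anticodon in capitals (chrM:3845-3913, plus strand), beside mt-Tl2, a leucine tRNA that lies directly before mt-Nd5 (chrM:11671-11741, plus strand). The sequences come from the GENCODE M21 transcripts on GRCm38 and carry DNA letters.
mt-Tm: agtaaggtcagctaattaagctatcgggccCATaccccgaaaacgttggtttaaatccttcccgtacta
mt-Tl2: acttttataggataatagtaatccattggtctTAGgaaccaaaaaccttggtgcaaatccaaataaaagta

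mt-Tm had 413, 364, 297 and 423 CPM in KO hearts at 15 months, against 139, 152 and 218 CPM in KO hearts at 2 months. WT hearts had 271, 197, 191 and 299 CPM at 15 months, against 118, 150 and 159 CPM at 2 months. In both genotypes every heart at 15 months lay above every heart at 2 months. Such a rise without overlap was shown by 8.83% of all genes in KO hearts and by 8.60% in WT hearts.

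The log2 fold change of mt-Tm at 15 over 2 months was 1.14 (SE 0.21, adjusted p 0.0174 by edgeR) in KO hearts and 0.75 (SE 0.21, adjusted p 0.0901 by edgeR) in WT hearts. The difference of 0.39 (SE 0.29, adjusted p 0.9999 by edgeR) did not pass. The call in KO hearts was lost without KO replicate 4 at 15 months (adjusted p 0.057), KO replicate 1 at 2 months (adjusted p 0.12) or KO replicate 2 at 2 months (adjusted p 0.0748), while the log2 fold change lay between 1.02 and 1.37 over all 14 libraries left out in turn. In WT hearts mt-Tm passed under DESeq2 (adjusted p 0.0185) and without a filter on low counts (adjusted p 0.0461 by edgeR). Between genotypes its log2 fold change of KO over WT was 0.64 (SE 0.19, adjusted p 0.999 by edgeR) at 15 months and 0.25 (SE 0.22) at 2 months.

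mt-Tl2 had 2.75, 0.939, 12.7 and 28.0 CPM in KO hearts at 15 months, against 0.758, 0.842 and 0.283 CPM in KO hearts at 2 months. WT hearts had 1.17, 0.692, 1.20 and 1.29 CPM at 15 months, against 0.814, 1.49 and 0.309 CPM at 2 months. KO replicates 3 and 4 at 15 months held 421 and 666 counts, and no other library held more than 51. The log2 fold change of mt-Tl2 at 15 over 2 months was 4.15 (SE 0.97, adjusted p 0.0428 by edgeR) in KO hearts and 0.39 (SE 0.93) in WT hearts. At 15 months its log2 fold change of KO over WT was 3.34 (SE 0.80, adjusted p 0.999 by edgeR), and at 2 months -0.43 (SE 1.07).

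The call of mt-Tl2 rested on few libraries and was lost under most settings tried. Without KO replicate 3 or 4 at 15 months the adjusted p was 0.111 or 0.0929, and without KO replicate 1, 2 or 3 at 2 months 0.179, 0.106 or 0.167. Leaving out WT replicate 1, 3 or 4 at 15 months gave 0.0613, 0.0546 or 0.0577. With limma voom it was 0.187 and with the length slope as a covariate 0.473. The call was kept in 11 of 27 settings, among them DESeq2 (adjusted p 0.0007). Without KO replicate 1 or 2 at 15 months the adjusted p was 0.0124 or 0.0133 by edgeR. The count of members called with age in KO hearts was 0 without KO replicate 1 or 2 at 2 months or KO replicate 4 at 15 months, 1 without KO replicate 3 at 2 months, KO replicate 3 at 15 months or WT replicate 1 or 4 at 15 months, 5 without WT replicate 2 at 15 months and 6 without KO replicate 1 at 15 months. All genes called came to 3.94% without that WT replicate 2 and to 22.6% without that KO replicate 1, beside 14.7% and 17.6% of the 34 members.

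**Figure D4:**
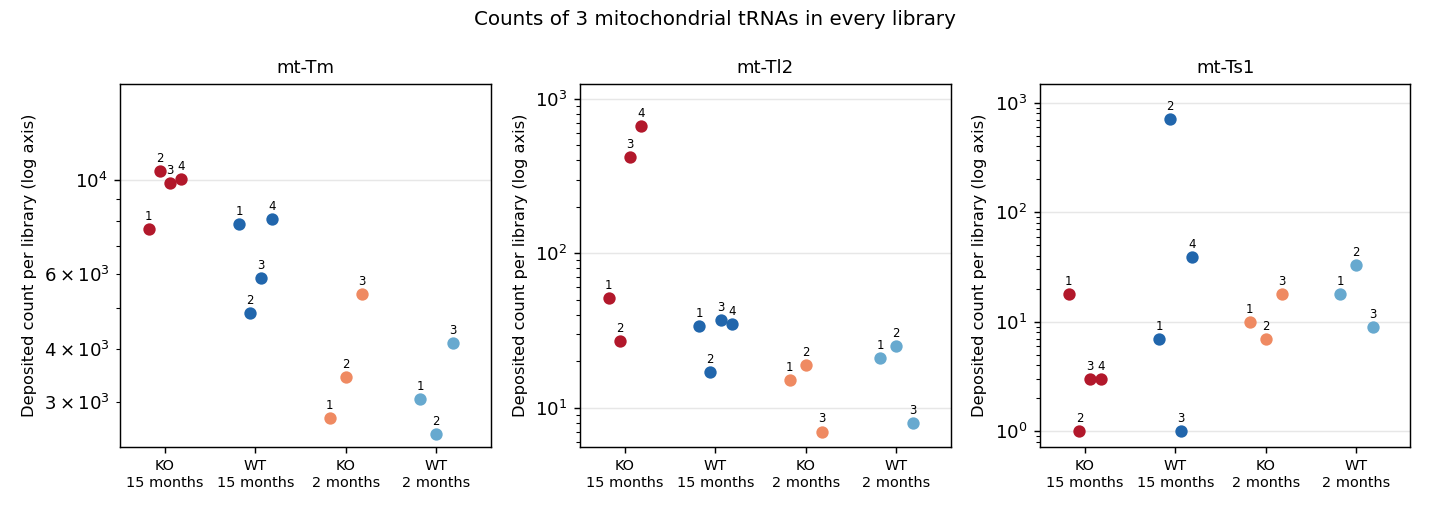
Deposited counts of mt-Tm, mt-Tl2 and mt-Ts1 (log axes) in every library of the 4 groups (x axis), with replicate numbers. mt-Tm spreads over all libraries, whereas mt-Tl2 is high in KO replicates 3 (421) and 4 (666) and mt-Ts1 in WT replicate 2 (718), all at 15 months.

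Other members did not pass the test with age. mt-Nd3, whose values are given above, had a log2 fold change of 0.73 (SE 0.20, adjusted p 0.0649 by edgeR) in KO hearts, where every heart at 15 months lay above every heart at 2 months, and 0.25 (SE 0.20) in WT hearts. It passed in KO hearts with DESeq2 (adjusted p 0.0124), without a filter (0.0342), with plain library totals (0.0482), and without KO replicate 1 (0.0401) or WT replicate 2 (0.0300) at 15 months. mt-Nd6 had -0.14 (SE 0.40) in KO and 0.099 (SE 0.40) in WT hearts, and mt-Co1 had -0.029 (SE 0.29) in KO and -0.45 (SE 0.28) in WT hearts.

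The extreme mRNAs with age were mt-Nd4l in KO hearts at 1.41 (SE 0.84) and mt-Atp8 in WT hearts at 1.38 (SE 0.74), and at the low end mt-Co3 in KO hearts at -0.56 (SE 0.58) and mt-Atp6 in WT hearts at -0.84 (SE 0.55). mt-Co3 (chrM:8607-9390, plus strand) had 1044, 296, 275 and 835 CPM in KO hearts at 15 months, against 522, 288 and 1899 CPM at 2 months. WT hearts had 463, 280, 731 and 319 CPM at 15 months, against 532, 808 and 692 CPM at 2 months. KO replicate 3 at 2 months was the highest library for mt-Co3, and without it the log2 fold change in KO hearts was 0.59. The value of mt-Atp8 in WT hearts was 0.27 without WT replicate 1 at 15 months, its highest library, and 0.96 without WT replicate 3 at 2 months. That of mt-Nd4l in KO hearts was 0.72 without KO replicate 1 at 15 months, and that of mt-Atp6 in WT hearts was 0.0017 without WT replicate 3 at 2 months.

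Over the 13 mRNAs the median log2 fold change with age was 0.18 in KO and 0.099 in WT hearts, with 10 and 9 of 13 above 0. Neither median held its size or its sign. In KO hearts it was -0.0061, with 6 of 13 above 0, without KO replicate 1 at 15 months, 0.36 without KO replicate 3 at 15 months, 0.072 with the replicate block and 0.57 with the length slope. In WT hearts it was -0.12 without WT replicate 3 at 2 months, -0.062 without WT replicate 1 at 15 months, 0.29 without WT replicate 2 at 2 months and 0.35 with the length slope. Over all alternatives it lay between -0.0061 and 0.57 in KO and between -0.12 and 0.35 in WT hearts.

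mt-Rnr2 had -1.01 (SE 0.64) with age in KO and -1.09 (SE 0.64) in WT hearts, neither past the test. It came to -0.17 in KO and -0.23 in WT hearts with the length slope, to -0.43 in KO hearts without KO replicate 1 at 2 months, and to -0.21 in WT hearts without WT replicate 2 at 2 months. mt-Rnr1 had -0.50 in KO and -0.44 in WT hearts. It turned to 0.23 in KO and 0.24 in WT hearts with the length slope, and to 0.21 in WT hearts without WT replicate 2 at 2 months. In KO hearts 6 members lay wholly higher and 1 wholly lower at 15 than at 2 months, where 8.83% and 11.3% of all genes did. In WT hearts 1 member, mt-Tm, lay wholly higher and 1, mt-Tf, wholly lower, where 8.60% and 7.57% of all genes did.

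**Figure D5:**
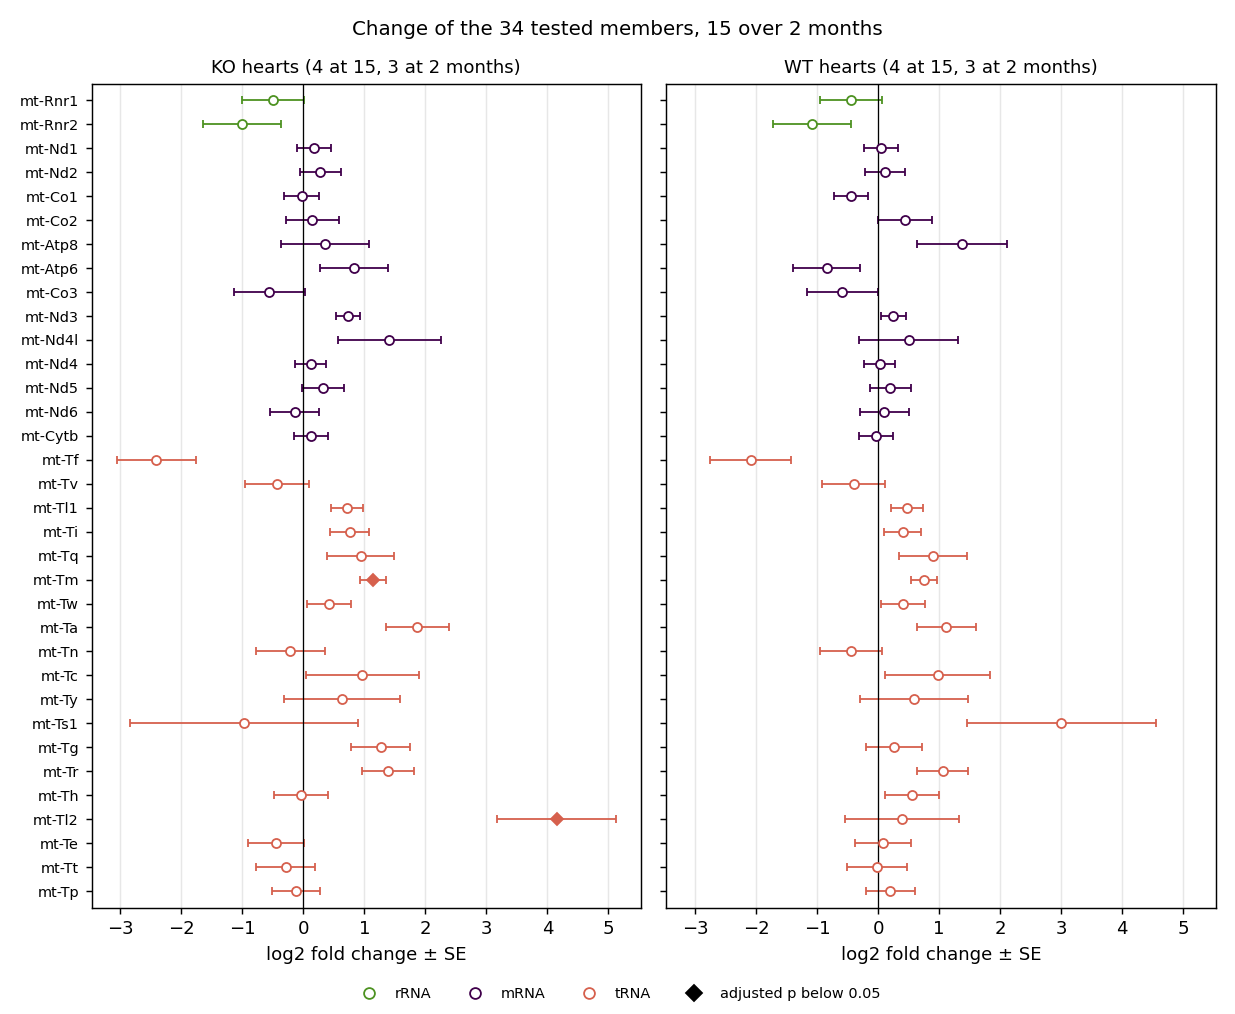
Log2 fold change ± SE of 15 over 2 months (x axis) for the 34 tested members (y axis, by class in gene order) in KO hearts (left) and WT hearts (right). Filled diamonds mark an adjusted p below 0.05, which in KO hearts are mt-Tm (1.14) and mt-Tl2 (4.15), and in WT hearts none.

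The tRNA genes are 59 to 75 bases long and their counts were very unequal. mt-Tl1 (leucine), mt-Ti (isoleucine), mt-Tm and mt-Tw (tryptophan) held 90.5% to 96.6% of the tRNA counts of a library, with means of 326, 342, 242 and 322 CPM. These 4, singled out after their values were seen, adjoin the ends of mt-Nd1 and mt-Nd2. mt-Tl1 ends at base 2750 and mt-Nd1 starts at 2751, mt-Ti shares 2 bases with the end of mt-Nd1, and mt-Tw shares 2 with the end of mt-Nd2. Other tRNAs that adjoin well counted mRNAs had low counts, such as mt-Th (histidine), next to mt-Nd4, with a mean of 0.532 CPM. How a read that spans a tRNA and its neighbour was counted is not given in the sources used here.

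At the low end, mt-Td (aspartate), mt-Ts2 (serine) and mt-Tk (lysine) did not pass the filter on low counts, with 21, 39 and 2 counts in all libraries together. mt-Tk (chrM:7700-7764, plus strand), shown with its anticodon in capitals, had its 2 counts in KO replicate 1 at 15 months. The other 13 libraries held 0, which allows up to 3 counts per library, or 0.0987 to 0.148 CPM of the library total. That limit covers counting error only. mt-Td and mt-Tk lie between mt-Co1 and mt-Nd4, and the nuclear sequence opposite these tRNAs was not analysed here.
mt-Tk: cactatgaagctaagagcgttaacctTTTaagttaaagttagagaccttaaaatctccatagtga

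mt-Tf, the phenylalanine tRNA at the start of the genome (chrM:1-68, plus strand), had lower values at 15 than at 2 months. It had 2, 2, 6 and 3 counts in KO hearts at 15 months, against 22, 12 and 10 counts in KO hearts at 2 months. WT hearts had 3, 0, 6 and 3 counts at 15 months, against 20, 4 and 9 counts at 2 months. The KO ages did not overlap in counts, while in WT hearts 1 heart at 15 months held more counts than 1 at 2 months, although the CPM did not overlap.
mt-Tf: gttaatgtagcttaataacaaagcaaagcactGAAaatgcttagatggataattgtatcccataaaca

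The log2 fold change of mt-Tf at 15 over 2 months was -2.41 (SE 0.65, adjusted p 0.0631 by edgeR) in KO and -2.09 (SE 0.67, adjusted p 0.111 by edgeR) in WT hearts, at a depth of at most 22 counts per library. In KO hearts it passed with DESeq2 (adjusted p 0.0178), and without WT replicate 2 (adjusted p 0.0382 by edgeR) or KO replicate 1 at 15 months (adjusted p 0.0305 by edgeR).

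mt-Ts1, a serine tRNA on the minus strand (chrM:6870-6938), had 18, 1, 3 and 3 counts in KO hearts at 15 months, against 7, 718, 1 and 39 counts in WT hearts. KO hearts at 2 months had 10, 7 and 18 counts, against 18, 33 and 9 counts in WT hearts. WT replicate 2 at 15 months alone held 718 of its 885 counts. The log2 fold change of KO over WT at 15 months, -4.85 (SE 1.58, adjusted p 0.999 by edgeR), was the lowest of the members and did not pass. Without WT replicate 2 it was -1.03. The sequence of mt-Ts1 is printed because this single library sets that value.
mt-Ts1: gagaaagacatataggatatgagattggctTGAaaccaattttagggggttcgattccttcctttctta

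The minus strand carries 8 of the 22 tRNAs, all of them tested. At 15 months 8 of 8 had a log2 fold change of KO over WT below 0 (median -0.51), while 10 of 11 tested plus-strand tRNAs were above 0 (median 0.30). At 2 months 6 of 8 minus-strand tRNAs were below 0 (median -0.55) and 8 of 11 plus-strand tRNAs above 0 (median 0.10). None passed the test at either age. WT replicate 2 at 15 months was the highest WT heart of that age for 7 of the 8 minus-strand tRNAs. Without it 5 of 8 were below 0 at 15 months with a median of -0.045, and 9 of 11 plus-strand tRNAs were above 0 with a median of 0.44. With the length slope 5 of 8 minus-strand tRNAs were below 0 (median -0.12), and without KO replicate 2 at 15 months 7 of 8 were (median -0.18). Scaled to the 13 mRNAs, 4 of 11 plus-strand tRNAs were above 0 at 15 months (median -0.084). At 2 months 4 of 8 minus-strand tRNAs were below 0 without WT replicate 2 (median 0.091), and 5 of 11 plus-strand tRNAs were above 0 without KO replicate 1 (median -0.10). Minus-strand tRNAs took 1.77% to 3.76% of the tRNA counts in KO and 3.51% to 6.43% in WT hearts at 15 months, and 2.69% to 5.92% in KO and 3.65% to 4.94% in WT hearts at 2 months, overlapping at both ages. mt-Ta, the alanine tRNA, was the only member whose KO values were all lower at 2 months, with 0.859, 0.665 and 0.607 CPM in KO hearts, against 0.931, 2.03 and 1.31 CPM in WT hearts, where 3.72% of all genes had such a pattern. These values rest on 15 to 17 counts per KO library and 24 to 34 per WT library. Among the other minus-strand tRNAs, mt-Tn, mt-Tc and mt-Ty held at most 31, 40 and 45 counts in any library, so their signs are weak.

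Nuclear genes that serve the mitochondrial genome were read from fixed lists. Of 9 tested genes of mitochondrial transcription, such as the polymerase Polrmt and the DNA-binding factor Tfam, 0 passed in any comparison. The same held for 24 genes of RNA processing and stability, 13 of mitochondrial DNA replication, 8 regulators such as Ppargc1a and 20 mitochondrial aminoacyl-tRNA synthetases. Among those with the smallest p with age, Lrpprc and Slirp, which together bind and stabilise mitochondrial mRNAs, had values of opposite sign. Lrpprc had 0.95 (SE 0.29, adjusted p 0.0821 by edgeR) in KO and 1.02 (SE 0.29, adjusted p 0.0929 by edgeR) in WT hearts, and Slirp had -1.12 (SE 0.31, adjusted p 0.0641 by edgeR) in KO and -1.10 (SE 0.31, adjusted p 0.0879 by edgeR) in WT hearts. Tefm, a transcription elongation factor, had -0.79 (SE 0.24, adjusted p 0.0791 by edgeR) in KO and -0.63 (SE 0.24, adjusted p 0.143 by edgeR) in WT hearts. The values of these 3 genes come from the fit without the length slope, which differed between the ages.

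The nuclear-encoded partner subunits of the same complexes mostly had log2 fold changes below 0 with age. Of 80 tested, 5 fell in KO hearts at 15 against 2 months, where 1.18% of all genes fell, and 75 were below 0 with a median log2 fold change of -0.79, beside 0.18 for the 13 mitochondrial mRNAs and 0.0058 for all genes. In WT hearts 1 fell, Cox7c, with -1.27 (SE 0.28, adjusted p 0.0462 by edgeR), where 0.425% of all genes fell, and 72 were below 0 with a median of -0.63, beside 0.099 for the mRNAs and -0.018 for all genes.

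The 5 that fell in KO hearts were subunits of complexes I, III and IV and of ATP synthase. Cyc1, cytochrome c1 of complex III, averaged 348 ± 76.2 CPM at 15 months and 603 ± 44.3 CPM at 2 months (SD, n = 4 and 3). Ndufb6 of complex I averaged 79.3 ± 38.0 CPM at 15 months and 205 ± 43.7 CPM at 2 months. Cox8a of complex IV averaged 53.7 ± 15.4 CPM at 15 months and 97.2 ± 4.76 CPM at 2 months. The other two, Atp5k and Atp5g3 of ATP synthase, had log2 fold changes of -1.72 (SE 0.39) and -0.74 (SE 0.18).

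The length slope moved with age in the same libraries, and averaged 0.109 ± 0.150 in KO and 0.0508 ± 0.0915 in WT hearts at 15 months (SD, n = 4 each), against -0.105 ± 0.0494 in KO and -0.108 ± 0.0868 in WT hearts at 2 months (SD, n = 3 each). With it as a covariate 0 partner subunits passed in either genotype, where 0.174% of all genes fell in KO and 0.335% in WT hearts. The partners' medians were then -0.18 in KO and -0.098 in WT hearts, beside 0.57 and 0.35 for the mRNAs. Without KO replicate 1 at 15 months the medians in KO hearts were -0.98 for the partners and -0.0061 for the mRNAs. In KO hearts the count of 5 became 0 without any 1 of the 3 young KO hearts (0.124% to 0.254% of all genes fell). It was also 0 without KO replicate 2, 3 or 4 at 15 months, where 0.215% to 0.306% of all genes fell. It came to 64 without KO replicate 1 at 15 months, where 12.3% of all genes fell. Without 1 of the WT hearts it was 1 to 13, where 0.645% to 2.23% of all genes fell. In WT hearts the count of 1 ranged over 0 to 20 with 1 library left out, where 0.0714% to 2.92% of all genes fell. The 20 came without KO replicate 1 at 15 months, where 2.92% of all genes fell. Over all 14 libraries left out in turn the median lay between -0.98 and -0.66 in KO hearts and between -0.80 and -0.41 in WT hearts, the last without WT replicate 2 at 2 months.

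The count of partners that fell also moved with the method. In KO hearts it was 45 with DESeq2 (5.24% of all genes fell), 29 with libraries scaled to the 13 mRNAs (2.16%), 16 with plain totals (1.45%), 10 with limma voom (2.15%), 9 without a filter (0.835%), and 0 with the replicate block (0.200%), with only the groups compared (0.332%) or without both low-rRNA libraries (0.214%). In WT hearts it was 19 with DESeq2 (3.58% of all genes fell), 4 without a filter (0.388%), and 0 with limma voom (0.406%), the replicate block (0.135%) or scaling to the 13 mRNAs (0.116%).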

How the data were processed

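The deposited values are raw counts per Ensembl gene, made by the authors from 14 libraries of total heart RNA made with a stranded kit that removes rRNA, per the labels' protocols. The submitters' processing notes name cutadapt 1.16, STAR 2.7.3a, featureCounts 1.6.3, DESeq2 1.26.0 and GRCm38. Which annotation release and strand option were used, and how reads with several possible genes were counted, is not stated there or in the labels. GENCODE M21 (GRCm38) gave symbols, positions and transcript sequences for 55227 of the 55487 identifiers. The table held 0 columns without a sample.

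All genes were tested in edgeR 4.0.16 (R 4.3.3): filterByExpr on the 4 groups (minimum count 10, minimum total 15), TMM scaling, 1 mean per group over all 14 libraries, the robust quasi-likelihood F-test on 6 contrasts, and Benjamini-Hochberg adjustment over 15528 genes. CPM values are relative to TMM-scaled totals. Shares use plain totals. The SE is the log2 fold change divided by the square root of F. The method was tested on simulated counts. The lowest chi-square between any 2 libraries was 19.8 per degree of freedom, so no 2 differed by counting error alone. This cannot tell whether 2 libraries were made from the same heart. Intervals and limits cover counting error only, since reads carry no molecular identifiers.

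Members, lists and tests were chosen with earlier results of these data known. Values per library are given for mt-Rnr1, mt-Rnr2, mt-Co1, mt-Nd3, mt-Nd6, mt-Atp6, mt-Atp8, mt-Cytb and mt-Tl2, for members past the threshold and for the mRNAs with the highest and lowest log2 fold change of a contrast. Of each list, members past the threshold or those with the smallest p are named. mt-Ta, mt-Tf, mt-Ts1, mt-Tk and mt-Th were added after their values were seen, and so was the choice of which of these members' log2 fold changes are printed. Alternatives were RLE factors, plain totals, scaling on nuclear genes or on the 13 mRNAs, no filter, a mean CPM of at least 1, DESeq2 1.42.0, limma 3.58.1 voom, only the groups compared, a replicate block, the length slope as a covariate, an adjusted p below 0.1 and each library left out. Adding the copies' counts and leaving out both low-rRNA libraries were chosen after seeing the data.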

Additional observations from a re-analysis of the deposited data

Results flagged for a closer look

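Among the 2 groups of 4 libraries, 78 sets of values were checked for a library far from the other 3, and 7 stood out at the 95% level of Dixon's test, which flags about 1 in 20 groups by chance. In KO hearts at 15 months they were mt-Ty in replicate 4, with 0.968 CPM against at most 0.324 in the others, and mt-Ts1 in replicate 1, with 0.971 CPM against at most 0.126. In WT hearts at 15 months replicate 2 stood out for mt-Tw, with 658 CPM against at most 264, and for mt-Ts1, with 29.2 CPM against at most 1.44. WT replicate 3 stood out for mt-Co1, as the lowest with 95617 CPM against at least 120755, and for mt-Co2, with 554 CPM against at most 238. WT replicate 1 stood out for mt-Nd4l, with 340 CPM against at most 64.9. Their causes were not tested.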

How the results depend on the processing

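Between genotypes, at 2 months, at 15 months, over both ages and for the difference, the count of members past the threshold was 0 under every alternative run. With age in KO hearts it was 2 (2.25% of all genes), and 6 at an adjusted p below 0.1 (10.4%), 6 with DESeq2 (10.3%), 1 with limma voom (3.12%), 1 with only the groups compared (0.908%), 1 without both low-rRNA libraries (0.586%), 0 with the replicate block (0.451%), and 0 to 6 with 1 library left out (0.303% to 22.6%). With age in WT hearts it was 0 (1.04%), and 1 at an adjusted p below 0.1 (4.55%), without a filter (0.749%), with DESeq2 (7.19%) or with the length slope (0.792%). Same-numbered samples had deviations correlated at -0.43 to 0.299 and no labelled link, so the numbers were not taken to pair them. The block ended the call of mt-Tm (adjusted p 0.0833) and mt-Tl2 (0.148). Fitting only the groups compared gives no value for the mean and the difference.

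Of the 64 named pairs of a member and a contrast, 62 were not called, and 37 of these changed sign under at least 1 alternative. Among the printed log2 fold changes, scaling to the 13 mRNAs turned KO over WT at 2 months to -0.066 for mt-Nd3 and -0.13 for mt-Nd6, and at 15 months to -0.057 for mt-Co1. It moved the median of all genes by -0.32 at 15 months. That scaling equalises the summed mRNA counts of the libraries, so mRNA changes near 0 under it are partly built in. The copies' counts turned mt-Nd3 at 2 months to -0.0042 and the mean KO effect of mt-Atp6 to 0.21, and leaving out both low-rRNA libraries gave the last as 0.28. Plain totals gave mt-Nd6 at 2 months -0.049. At 15 months mt-Atp8 was 0.12 with voom and 0.095 with the block, and mt-Nd6 0.044 with the length slope. With age in KO hearts the length slope gave mt-Nd6 0.62, mt-Co1 0.57 and mt-Co3 0.10, and mt-Co1 was 0.093 without both low-rRNA libraries. In WT hearts mt-Co1 was 0.078 with the length slope, mt-Nd6 -0.047 with the block, and mt-Tl2 -0.085, -0.055 and -0.026 with the block, the length slope and without both low-rRNA libraries.

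Leaving out 1 library in turn, KO over WT at 2 months ranged over -0.23 to 0.21 for mt-Nd6, -0.29 to 0.21 for mt-Co1 and -0.84 to 0.14 for mt-Tl2. At 15 months it ranged over -0.46 to 0.046 for mt-Nd6, -0.065 to 1.81 for mt-Nd4l and -0.66 to 0.78 for mt-Atp8, the mean effect of mt-Atp6 over -0.51 to 0.16 and the difference of mt-Atp8 over -1.35 to 0.092. With age in KO hearts the ranges were -0.31 to 0.094 for mt-Nd6, -0.25 to 0.11 for mt-Co1 and -0.99 to 0.59 for mt-Co3, and in WT hearts -0.16 to 0.35 for mt-Nd6, -0.021 to 0.96 for mt-Tl2 and -1.31 to 0.0017 for mt-Atp6. The causes were not tested. Depth limits the 9 of 22 tRNAs that stayed under 50 counts in every library.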
